A study of Mus musculus with 7 samples.

Results

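B16 melanoma cells that had met an interferon gamma (IFNγ) pulse were compared with mock-pulsed cells at the labelled time of 23.5 h. Of 13587 genes listed anywhere in the study, 12841 were listed for both groups, and 12510 reached a level of at least 20 normalised reads in either group and were compared; 12480 of these could be tested. The measurement was RNA-seq of polyA RNA. The cells were a clonal, stable line of C57Bl/6 origin, so all values come from 1 clone, kept for under 5 passages. In the IFNγ group the cells were detached and exposed to recombinant mouse IFNγ at 10 nM over 5 h. The mock group went through the same 5 h in medium alone. Both groups were then washed and seeded at 35000 cells per well in duplicate. Cells labelled 0 h (T0) served only to put both groups on 1 scale and are given for orientation. Neither the zero point of the hours nor the prior handling of the T0 cells is given by the labels. The study's title and design place the comparison in a question on how a passing exposure to the cytokine is followed by a lasting response.

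IFNγ is a cytokine of T cells and natural killer cells. It binds a receptor made of IFNGR1 and IFNGR2 chains, whose kinases JAK1 and JAK2 activate transcription factors of the STAT family. STAT dimers bind the GAS element (gamma-activated site) of promoters, and IRF factors, alone or in complex with STAT proteins, bind the ISRE (interferon-stimulated response element). In many cell types the programme that follows includes GTPases that attack vacuoles of pathogens, antigen presentation on MHC class I and class II molecules, antiviral proteins, and inhibitors that end the signal.

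Each group was represented by 2 libraries, with 20007383 and 19903770 reads in recovered genes for IFNγ and 18245415 and 17892104 for mock. Library 1 and library 2 are only names and pair nothing across groups. No label ties a library to a culture of its own. The p-values thus measure the spread between libraries alone, which may be technical. Levels are the authors' means on a common scale, in normalised reads, not corrected for gene length. The log2 ratio sets IFNγ over mock after adding 1 to both levels. "Higher" or "lower" means an adjusted p under 0.05 in limma, and "called" adds a 2-fold difference. Both groups carried melanocyte markers at high level, among them Mitf (15729 with IFNγ, 13455 with mock), Sox10 (13576 with IFNγ, 12870 with mock) and Mlana (22567 with IFNγ, 20985 with mock). Of the markers of other cells, 1 of 14 for T and NK cells was compared (Lck, 64.3 with IFNγ and 35.8 with mock) and 1 of 14 for myeloid cells (Cd68, 28.0 with IFNγ and 23.6 with mock), and 0 of 8 keratinocyte markers were listed. Of 10 fibroblast markers 5 were compared, with a median log2 ratio of -0.0013. Acta2 was called higher (51.9 with IFNγ, 15.7 with mock), and 1 other was lower, with a log2 ratio of -0.40. Of 8 endothelial markers 2 were compared, Vwf (347.9 with IFNγ, 240.7 with mock) and Eng (7924 with IFNγ, 7046 with mock). In a bulk sample, fewer cells of a type and less RNA per cell cannot be told apart.

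Limma found 1065 genes higher with IFNγ (8.53% of the genes tested) and 754 lower (6.04%). Called higher were 144 genes (1.15%) and called lower 43 (0.345%), 187 in all (1.5%). The responses were uneven in size. Of the genes called higher, 76 were at least 4-fold apart, 41 at least 8-fold and 5 at least 64-fold, while 1 called lower gene reached 4-fold and 0 reached 8-fold. In all 144 genes called higher both IFNγ libraries stood above both mock libraries, and in all 43 called lower both stood below. The calls were made from these same libraries, so this separation is no separate support for them. The directions also differed in level, for 65 of the genes called higher had an IFNγ level of 1000 or more, and 0 genes with a level of 1000 or more in their higher group were called lower. Genes called higher made up 1.66% and 1.73% of all normalised reads of tested genes in the IFNγ libraries, against 0.306% and 0.277% in the mock libraries. The higher share among genes past limma, 58.5%, depended on the scale: with equal totals of recovered reads in each library limma found 903 higher and 1005 lower, a share of 47.3%. The counts also depended on how the spread was modelled: without a variance trend limma found 290 higher and 82 lower, and in a fit over all 14 libraries 243 and 77. Of the 144 genes called higher 132 and 124 kept their call in these fits, and of the 43 called lower 11 and 12.

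**Figure D1:**
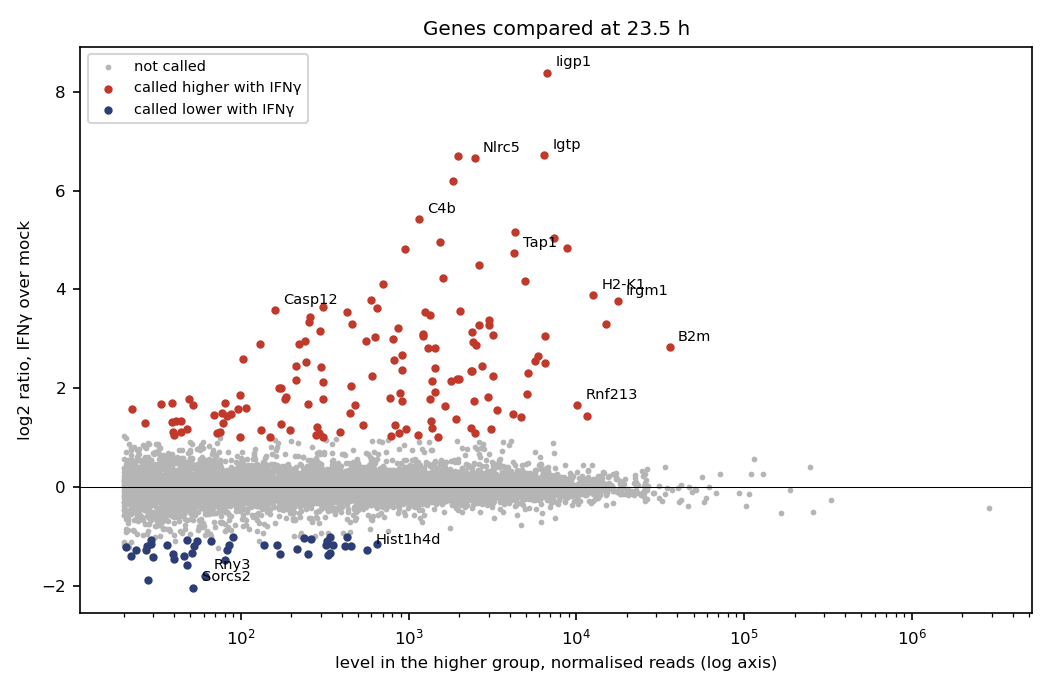
Log2 ratio of IFNγ over mock against the level in the higher group (normalised reads, log axis), 1 point per compared gene; red genes were called higher, blue genes called lower. Genes called higher reach a ratio of 8.38 and levels over 10000, while genes called lower stay between -2.04 and -1 and below a level of 1000.

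The immunity-related GTPases (IRGs) and guanylate-binding proteins (GBPs), which are loaded onto vacuoles that hold intracellular pathogens, gave some of the steepest responses. Of 6 IRG genes tested 5 were called higher (1.15% over all genes), with a median log2 ratio of 5.10 against 0.00 over all genes tested. All 3 GBP genes tested were called. Iigp1 had 6731 and 6684 normalised reads in the IFNγ libraries, against 22.2 and 16.0 in the mock libraries (log2 ratio 8.38, SE 0.12, limma adjusted p = 5.95e-13). Igtp had 6472 and 6375 with IFNγ, against 62.7 and 57.9 with mock (log2 ratio 6.71). In both genes the libraries of a group lay close together and the groups were far apart. Irgm2 had 7385 and 7227 with IFNγ, against 251.0 and 191.8 with mock. The annotated spans of Igtp and Irgm2 overlap on the same strand, so reads in the shared stretch may not be assigned with certainty. Irgm1, a regulator of the other IRG proteins, had 17685 and 17558 with IFNγ, against 1384 and 1221 with mock (log2 ratio 3.76). Ifi47 had 4204 and 4370 with IFNγ, against 119.7 and 116.9 with mock (log2 ratio 5.17). Irgq, the remaining member tested, had a log2 ratio of -0.05 (limma adjusted p = 0.68). Gbp2 had 8748 and 8910 with IFNγ, against 314.7 and 297.7 with mock (log2 ratio 4.85), and Gbp3 and Gbp7 had log2 ratios of 4.49 and 4.17.

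A further 162 genes were listed for IFNγ and not for mock, so that no ratio could be given, and 59 of them had an IFNγ level of at least 20. They included 7 of the 13 listed IRG genes and 6 of the 9 listed GBP genes. The IRG gene Tgtp2 had 5579 and 5441 normalised reads in the IFNγ libraries and averaged 10.0 in T0, and Tgtp1 had 2970 and 2921 and averaged 1.11 in T0. The other genes of this kind with the highest levels were Cd74, the invariant chain of class II molecules, at 2685 and 2850 (1.95 in T0), Zbp1, a sensor of nucleic acids, at 1877 and 2167 (8.16 in T0), and Psmb9, a subunit of the immunoproteasome, at 1784 and 1760 (9.09 in T0). In the other direction 64 genes were listed for mock alone, 9 of them at a level of at least 20, the highest of which was Il2ra at 31.5.

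**Figure D2:**
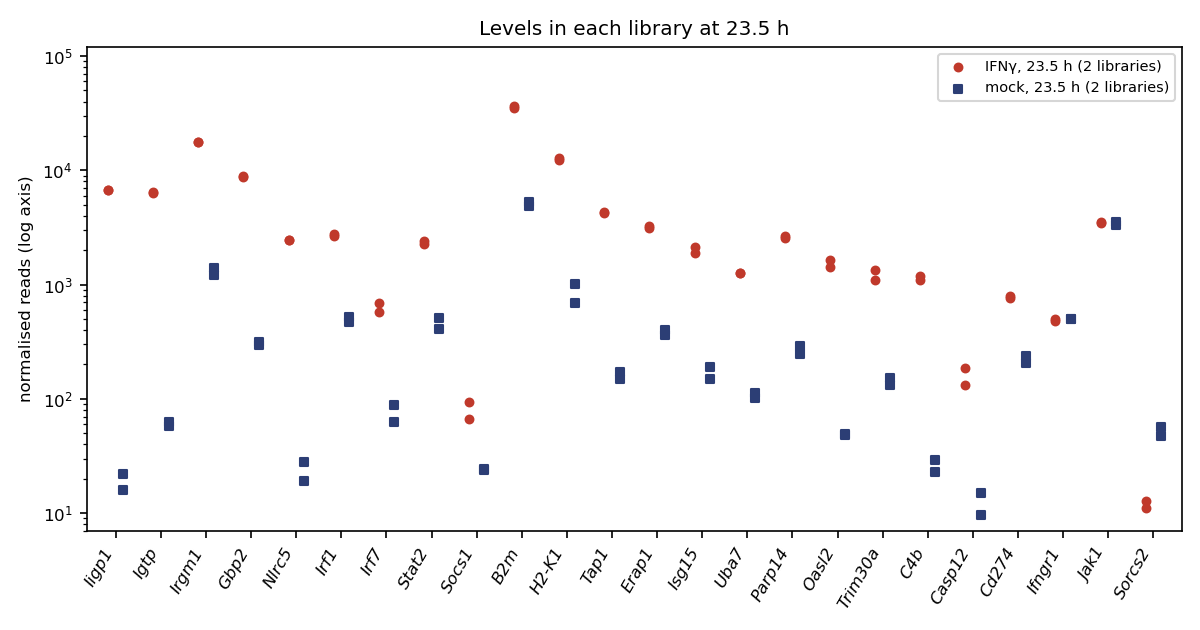
Normalised reads (log axis) of 24 genes in each library, with IFNγ as red circles and mock as blue squares to their right. The IFNγ libraries stand above the mock libraries in each gene except Ifngr1 and Jak1, where the groups lie side by side, and Sorcs2, where the IFNγ libraries stand below at 11 and 12.9.

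The promoters of genes called higher held a GAS or an ISRE match more often than those of all genes tested, 45.6% against 11.3%. The windows ran from 250 bases before to 50 after a gene's start, from RefSeq on GRCm38.p6, and held 114 of the 144 genes called higher. The GAS was searched as TTCNNNGAA, which reads the same on both strands, and the ISRE as GAAANNGAAA or TTTCNNTTTC on the other strand. Matches may overlap one another. The ISRE letters stood in 44 of the 114 genes (38.6%), against 3.6% of the tested genes with a promoter in the table and 2.8% of those not past limma. In genes called higher by at least 8-fold the share was 51.5% (17 of 33). The GAS letters stood in 17 of 114 (14.9%), against 8.2% of the tested genes. Unlike the ISRE share, the GAS share was not higher in the genes called higher by at least 8-fold (4 of 33, 12.1%) than in those below 8-fold (13 of 81, 16%). Of the genes called lower 9 had a promoter in the table, and 2 held the GAS letters and 1 the ISRE letters. Among all 32851 RefSeq promoters 3.44% held the ISRE letters and 8.3% the GAS letters. A match is a description of the letters and not a bound site. Some promoters share long stretches, such as those of Apol9a and Apol9b, so the counts are not counts of independent genes.

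**Figure D3:**
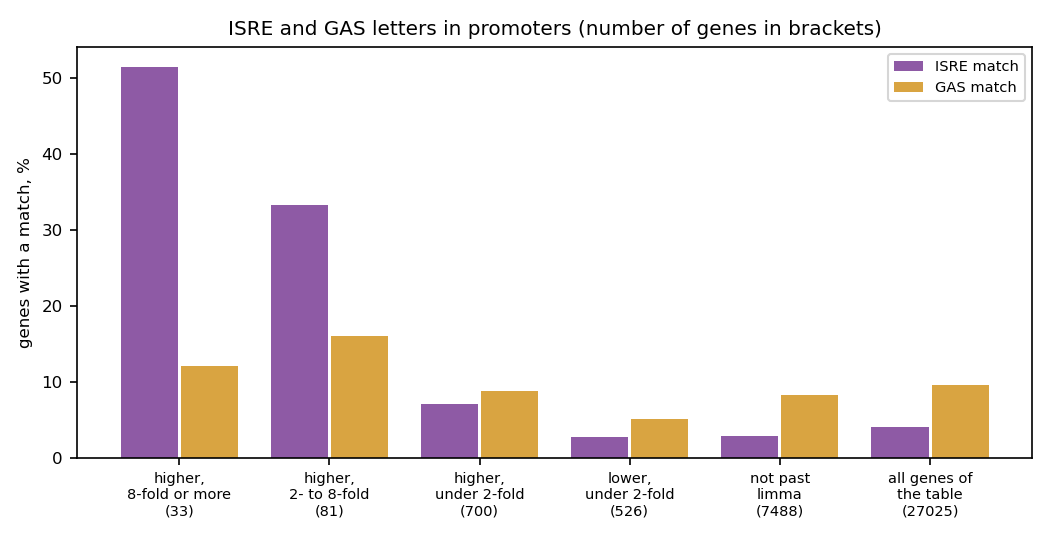
Share of genes (percent) with the ISRE letters (purple) or the GAS letters (yellow) in the promoter window, by the gene's result at 23.5 h, with the number of genes in brackets. The ISRE share is 51.5% in genes called higher by 8-fold or more, 33.3% below 8-fold, 7% in genes higher by less than 2-fold and 2.8% in genes not past limma.

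Promoters of genes with high ratios or of signalling genes are shown, each as the strand of the gene, 5′ to 3′, with the matches in capitals. They were picked for how the letters are arranged: a GAS and an ISRE together, a doubled ISRE, or a GAS alone. Igtp lies at chr11:58199306-58199605 on the plus strand, Irgm2 at chr11:58214727-58215026 on the plus strand, Apol9a at chr15:77410985-77411284 on the minus strand and Apol9b at chr15:77728822-77729121 on the plus strand. Irf1 lies at chr11:53769764-53770063 on the plus strand and Socs1 at chr16:10785487-10785786 on the minus strand.
Igtp: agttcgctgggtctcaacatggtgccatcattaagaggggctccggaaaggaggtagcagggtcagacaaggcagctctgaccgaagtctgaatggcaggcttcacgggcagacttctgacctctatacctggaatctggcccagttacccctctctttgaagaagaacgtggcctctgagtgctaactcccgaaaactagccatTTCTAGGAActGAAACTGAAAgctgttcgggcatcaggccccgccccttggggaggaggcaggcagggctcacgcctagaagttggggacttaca
Irgm2: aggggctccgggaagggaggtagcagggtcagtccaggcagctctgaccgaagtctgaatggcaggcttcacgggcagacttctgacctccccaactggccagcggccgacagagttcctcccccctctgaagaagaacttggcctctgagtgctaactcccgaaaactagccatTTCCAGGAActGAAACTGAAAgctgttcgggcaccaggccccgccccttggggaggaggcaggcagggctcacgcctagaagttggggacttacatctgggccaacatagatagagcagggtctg
Apol9a: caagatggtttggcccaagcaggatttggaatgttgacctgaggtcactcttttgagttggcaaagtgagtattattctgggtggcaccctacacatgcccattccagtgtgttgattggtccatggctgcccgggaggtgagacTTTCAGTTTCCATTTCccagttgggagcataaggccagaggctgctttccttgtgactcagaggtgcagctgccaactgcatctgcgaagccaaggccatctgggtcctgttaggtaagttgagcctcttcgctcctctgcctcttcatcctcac
Apol9b: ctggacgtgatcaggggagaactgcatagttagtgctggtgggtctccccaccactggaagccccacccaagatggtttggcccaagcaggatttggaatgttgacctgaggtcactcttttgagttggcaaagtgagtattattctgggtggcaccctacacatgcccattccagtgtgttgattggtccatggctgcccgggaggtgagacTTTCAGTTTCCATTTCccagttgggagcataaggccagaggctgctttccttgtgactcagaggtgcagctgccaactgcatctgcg
Irf1: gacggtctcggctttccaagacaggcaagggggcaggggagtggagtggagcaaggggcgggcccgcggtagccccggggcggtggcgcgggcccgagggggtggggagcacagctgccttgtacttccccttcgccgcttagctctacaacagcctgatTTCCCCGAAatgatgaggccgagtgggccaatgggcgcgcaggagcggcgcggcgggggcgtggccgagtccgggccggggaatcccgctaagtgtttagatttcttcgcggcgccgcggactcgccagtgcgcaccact
Socs1: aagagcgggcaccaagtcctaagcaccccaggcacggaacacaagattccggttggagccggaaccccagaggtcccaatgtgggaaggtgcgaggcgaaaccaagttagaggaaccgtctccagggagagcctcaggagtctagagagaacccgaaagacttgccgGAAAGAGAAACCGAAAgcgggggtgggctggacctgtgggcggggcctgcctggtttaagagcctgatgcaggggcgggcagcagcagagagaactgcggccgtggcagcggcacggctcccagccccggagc
Igtp and Irgm2 each had a GAS followed, after the same pair of letters, by an ISRE, with the GAS starting 45 bases before the start in Igtp and 75 bases before it in Irgm2. In Apol9a, Apol9b and Socs1 a pair of ISRE matches shared 4 letters. Irf1 held a single GAS, 90 bases before its start. Ifi47, Oasl2, Tap1, H2-K1, H2-Q4, Irf7, Sp100, Nmi, Irf9 and Sp140 were called higher and held none of these letters in the window.

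Apol9a and Apol9b are near copies that encode apolipoprotein L proteins, and reads shared by both could be split between them, so their separate values are uncertain. Apol9a had 1940 and 2007 normalised reads with IFNγ, against 23.2 and 13.0 with mock, and Apol9b had 1800 and 1880 with IFNγ, against 38.6 and 9.99 with mock. The mock libraries of Apol9b were several-fold apart, yet both lay far below the IFNγ libraries (log2 ratio 6.19, SE 0.40).

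Among the genes of the signal itself, receptor and kinase genes moved little, while Stat2 and Stat3 were higher. Ifngr1 had 477.4 and 500.5 normalised reads with IFNγ, against 501.0 and 501.5 with mock (log2 ratio -0.04, SE 0.07, limma adjusted p = 0.79). Ifngr2 had a log2 ratio of -0.12 and Jak1 of 0.03, and neither passed limma. Jak2 was higher by 0.19 (limma adjusted p = 0.024). Of 11 receptor and JAK-STAT genes 4 were higher (8.53% over all genes), but 3 without a variance trend and 3 over all 14 libraries. Stat2, a partner of IRF9 at the ISRE, had 2273 and 2430 with IFNγ, against 511.6 and 412.6 with mock (log2 ratio 2.35). Stat3, a relay of interleukin 6 family cytokines, was higher by 0.90, below 2-fold. Tyk2, Stat5a, Stat5b and Stat6 had log2 ratios between 0.03 and 0.17 and did not pass.

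Of 10 genes tested of the IRF list, which also holds genes of IRF2-binding proteins, 3 were called higher (1.15% over all genes). Irf1, a first-wave activator, had 2776 and 2671 normalised reads with IFNγ, against 521.3 and 468.5 with mock (log2 ratio 2.46). Irf7, known from the type I interferon response, had 571.8 and 683.5 with IFNγ, against 88.8 and 62.9 with mock (3.03). Irf9 had 1633 and 1664 with IFNγ, against 572.4 and 488.5 with mock (1.63). Irf2bp2, a partner of IRF2, was lower by 0.24. Without a variance trend or over all 14 libraries 0 genes of the list were lower. Irf2, Irf3, Irf4, Irf5, Irf2bp1 and Irf2bpl did not pass. Irf4 had 11 and 53.4 in the IFNγ libraries, too far apart for a ratio to be read. Of 16 other transcription factors of the response 4 were higher (8.53% over all genes). They were Nlrc5, the transactivator of MHC class I genes, at 2475 in each IFNγ library against 28.0 and 19.0 with mock (6.66), the nuclear body proteins Sp100 (2.80) and Sp140 (1.58), and Pml, the organiser of PML nuclear bodies, at 0.47.

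Some genes listed as feedback inhibitors were higher as well, but not the list as a whole. Of 17 feedback inhibitors 5 were called higher (1.15% over all genes), 1 was lower and 11 did not pass. Their median log2 ratio was 0.03. Socs1, an inhibitor of the JAK kinases, had 93.5 and 66.2 normalised reads with IFNγ, against 24.1 and 24 with mock (log2 ratio 1.69, SE 0.23, limma adjusted p = 5.1e-04). Usp18, which removes ISG15 from proteins and dampens the type I receptor, had 698.2 and 933.7 with IFNγ, against 166.0 and 107.9 with mock (2.57). Trim30a had a log2 ratio of 3.09, Ifi35 of 2.14 and its binding partner Nmi of 1.78. Socs5 was lower by 0.24, but 0 genes of the list were lower without a variance trend or over all 14 libraries. The phosphatase genes Ptpn1, Ptpn2, Ptpn6 and Ptpn11 and the Pias1, Pias3 and Pias4 genes had log2 ratios between -0.11 and 0.04 and did not pass.

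Most class I chain genes of MHC presentation were higher. Of 9 class I chain genes tested 8 were higher and 7 called (8.53% and 1.15% over all genes). Their median log2 ratio was 2.87. B2m, the light chain shared by class I molecules, had 35134 and 36743 normalised reads with IFNγ, against 5246 and 4886 with mock (log2 ratio 2.83, SE 0.05, limma adjusted p = 2.1e-12). H2-K1 and H2-D1 encode the classical heavy chains of this strain. H2-K1 had 12324 and 12849 with IFNγ, against 1002 and 696.3 with mock (3.89). H2-D1 had 14913 and 15056 with IFNγ, against 1639 and 1400 with mock (3.30). The non-classical chains H2-T23 (4.82), H2-Q4 (3.65), H2-T22 (2.87) and H2-M3 (2.15) were called too, and Mr1, which presents vitamin metabolites, was higher by 0.32. H2-T24 had a log2 ratio of 0.55 and did not pass. The fit over all 14 libraries tested 7 of the chain genes and found 5 higher, all called. Class I genes share long stretches of sequence, so reads may be split between the members.

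Within the peptide loading genes the response was divided by kind. Of 16 tested, 11 were higher and 8 called (8.53% and 1.15% over all genes). Tap1 and Tap2 form the pump that brings peptides into the endoplasmic reticulum (ER). Tap1 had 4298 and 4248 normalised reads with IFNγ, against 170.9 and 147.8 with mock (4.74). Tap2 had 1585 and 1638 with IFNγ, against 98.5 and 71.9 with mock (4.23). Psmb10, an immunoproteasome subunit, rose by 3.38 on the log2 scale, the trimming peptidase gene Erap1 by 3.07, the peptide editors Tapbp by 3.06 and Tapbpl by 2.67, and the proteasome activators Psme2 by 2.82 and Psme1 by 2.25. The third activator gene, Psme3, had 6143 and 6043 with IFNγ, against 6138 and 6308 with mock (-0.03, limma adjusted p = 0.68). The general chaperones of the route moved far less, with Calr higher by 0.21, Pdia3 by 0.26 and Canx at 0.05, which did not pass. Of 31 constitutive proteasome genes 5 were higher and 0 called, with a median of 0.07, and Psma2 and Psmb4 were the steepest at 0.29 and 0.27; 0 of them passed without a variance trend or in the fit over all 14 libraries. Of 10 listed class II pathway genes 5 were listed for IFNγ alone and had no ratio. The other 5 were tested and 4 were higher. They were led by H2-DMb1, a chain of the class II peptide editor, at 419.7 and 439.7 with IFNγ against 31.9 and 40.0 with mock (3.54). The proteases Lgmn (0.50), Ctsb (0.44) and Ctsl (0.27), also lysosomal, were the other members, and Ifi30 had a log2 ratio of -0.11 and did not pass. Without a variance trend 3 class II genes passed, and over all 14 libraries 2.

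Antiviral genes known best from type I interferon were higher nearly throughout. Of 23 genes of the IFIT, IFITM and MX list 22 were higher and 15 called (8.53% and 1.15% over all genes). Their median log2 ratio was 2.00. Ifit3, which binds viral RNA in a complex with IFIT1, had 2787 and 3249 normalised reads with IFNγ, against 350.4 and 266.7 with mock (log2 ratio 3.29). Ifitm3, a membrane protein that blocks viral entry, had 5661 and 6103 with IFNγ, against 1015 and 849.1 with mock (2.66), and Bst2, which tethers budding virus, rose by 2.55. Phf11d (3.62) and Ifi44 (3.43) had the highest ratios, and Ifitm2 did not pass (-0.08). The 7 OAS family genes tested, which encode sensors of double-stranded RNA and their relatives, were all called higher, led by Oasl2 with 1414 and 1648 with IFNγ, against 49.2 and 48.0 with mock (4.95).

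The ISG15 pathway couples a ubiquitin-like protein to others, and its enzymes were higher together with several ubiquitin ligases. Of 13 genes tested 11 were higher and 7 called (8.53% and 1.15% over all genes). Isg15 itself had 1873 and 2151 normalised reads with IFNγ, against 191.1 and 148.8 with mock (log2 ratio 3.56). Its activating enzyme Uba7 had 1262 and 1254 with IFNγ, against 112.9 and 100.9 with mock (3.54). The conjugating enzyme Ube2l6 followed at 2.92 and the ligase Herc6 at 1.41, whereas the related Herc3 and Herc4 had log2 ratios of 0.10 and -0.01 and did not pass. Rnf213, a very large ubiquitin ligase, had 9691 and 10453 with IFNγ, against 2679 and 3720 with mock (1.65). Of 16 PARP family genes 12 were higher and 7 called, led by Parp14 with 2571 and 2664 with IFNγ against 288.6 and 246.7 with mock (3.28). Parp9 (2.35), Parp12 (2.30) and Parp10 (2.19) followed.

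Sensors, restriction factors and cell death genes were split. Of 18 RNA and DNA sensor genes 11 were higher and 6 called (8.53% and 1.15% over all genes). Ddx60, a helicase, had 430.7 and 493.1 normalised reads with IFNγ, against 44.4 and 48.0 with mock (3.29), and the RNA sensors Dhx58 (2.96) and Ifih1 (2.14) and the peptidoglycan sensor Nod1 (2.05) followed. Of 14 Schlafen and other restriction factor genes 10 were higher, with Slfn8 at 3.34, Mov10 at 1.09 and Slfn3 at -0.07, which did not pass. Of 23 cell death genes 10 were higher, 4 called and 1 lower. Casp12 had 131.9 and 185.8 with IFNγ, against 9.65 and 15 with mock (3.59). Gsdmd, the pore former of pyroptosis, had 185.1 and 182.1 with IFNγ, against 57.9 and 46.9 with mock (1.79). Casp4, which cleaves it, was higher by 1.49 and Mlkl, the executor of necroptosis, by 1.18. Without a variance trend 7 sensor, 5 restriction factor and 7 cell death genes were higher, and over all 14 libraries 6, 5 and 6.

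Genes of surface and secreted proteins differed from list to list. Over all genes tested 8.53% were higher and 6.04% lower. Of 11 checkpoint ligand and immune evasion genes 5 were higher. Cd274, which encodes PD-L1, had 789.9 and 762.6 normalised reads with IFNγ, against 238.4 and 205.8 with mock (log2 ratio 1.80). Serpinb9, an inhibitor of granzyme B, rose by 2.24, and Il18bp, a decoy for interleukin 18, had 221.8 and 221.7 with IFNγ, against 29.0 in each mock library (2.89). Lgals9 (0.92) and Cd47, the signal that holds off phagocytes (0.51), were higher by less than 2-fold. Cd276, Pvr, Pvrl2, Lgals1, Serpinb6b and Ceacam1 did not pass. Of 13 chemokine and cytokine genes 3 were higher: Csf1 (0.85), Cxcl10 (0.25) and Il18, the last with 86.1 and 63.5 with IFNγ, against 34.8 and 33.0 with mock. Cxcl10, which draws T cells, had 7293 and 7607 with IFNγ, against 6066 and 6445 with mock. Its log2 ratio of T0 over IFNγ, as deposited by the authors, was 0.09 and that of T0 over mock 0.34, so both groups stood below T0. Of 6 complement genes 4 were higher, among them C4b with 1104 and 1198 with IFNγ, against 29.0 and 23 with mock (5.42), C1ra (1.74), C1rl (0.37) and C2, which had 2272 and 2464 with IFNγ, against 1029 and 1028 with mock. Of 23 cytokine receptor genes 7 were higher, with Il15ra (1.67), Osmr (0.89) and Il6ra (0.70) the steepest. Among 6 NK cell ligand genes Mill2 (1.11) and Cadm1 (0.90) were higher and Ulbp1, a ligand of NKG2D, was lower by 0.28. Without a variance trend 1 chemokine or cytokine gene (Csf1), 2 cytokine receptor genes and 3 complement genes were higher, and over all 14 libraries 0, 4 and 2. Mill2 did not pass limma without IFNγ library 2 (adjusted p = 0.104) or without mock library 2 (0.0535), and Ulbp1 did not pass without a variance trend (0.126) or over all 14 libraries (0.675).

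Many of the called genes were neighbours. Of the 144 genes called higher 50 (34.7%) had another called higher gene as the next compared gene on their chromosome. Among 42 genes called lower with a position, 12 (28.6%) had another called lower gene next to them. Over all genes tested 1.15% were called higher and 0.345% called lower. Genes called higher formed 7 runs of at least 3. The longest held Trim34a, Trim5, Trim12a, Trim12c, Trim30a and Trim30d on chromosome 7, from 104244457 to 104507849, with log2 ratios between 2.37 and 3.16, while Trim6 and Gm16464 on either side had 0.54 and 0.21 and did not pass. Over the whole TRIM list only 9 of 30 were higher and 2 lower, with a median of 0.05. On chromosome 5, from 120730333 to 120907521, Oas2, Oas1c, Oas1b, Oas1g and Oas1a had log2 ratios between 1.15 and 3.79, and their neighbours Ddx54 and Ptpn11 had 0.08 and 0.01. Gbp7, Gbp3 and Gbp2 formed a run on chromosome 3, H2-DMb1, Tap1 and Tap2 on chromosome 17, Parp14, Dtx3l and Parp9 on chromosome 16, Ifit3, I830012O16Rik and Ifit1 on chromosome 19, and Psme2, Rnf31 and Irf9 on chromosome 14. Positions are on GRCm38. In the chromosome 19 run the neighbour Ifit2 had 2111 and 2278 normalised reads with IFNγ, against 1573 and 1607 with mock, and was higher by 0.46. The members of most runs are copies of one another, so the counts of neighbours are not counts of independent responses.

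**Figure D4:**
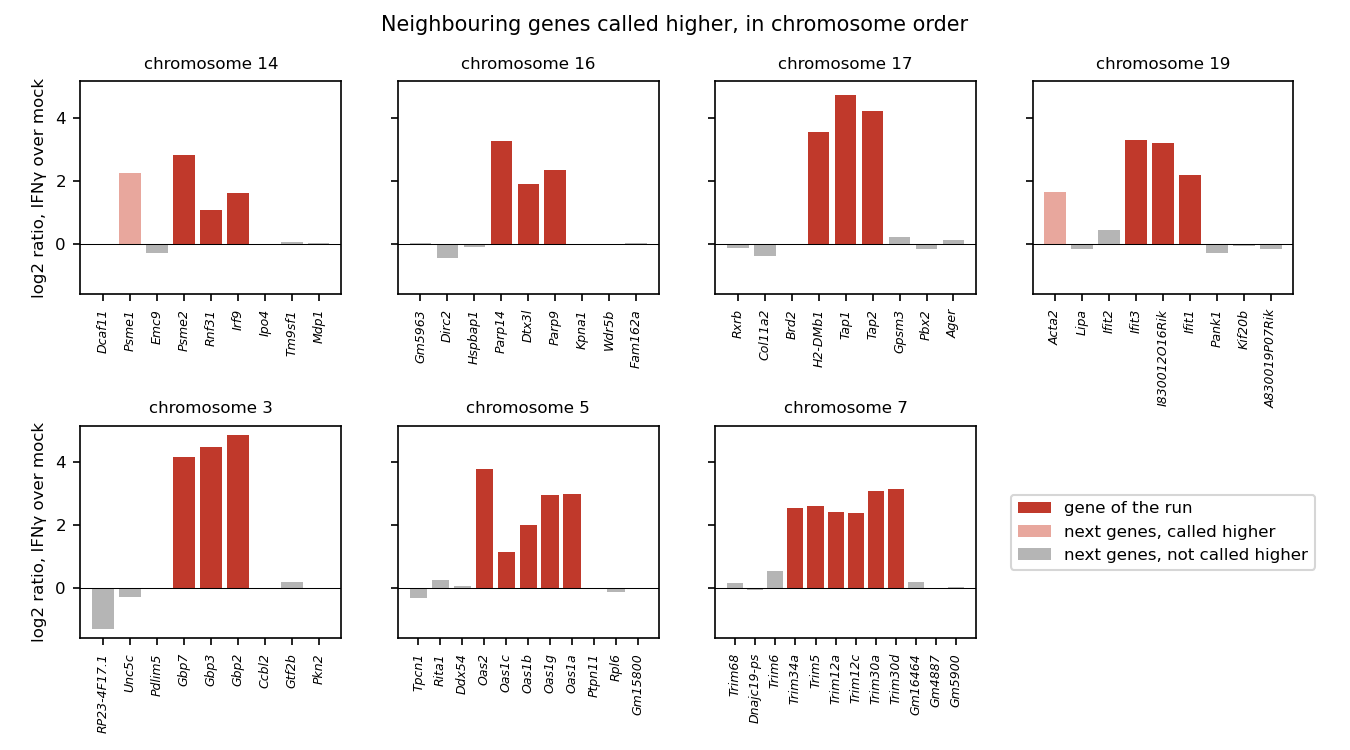
Log2 ratio of IFNγ over mock for the 7 runs of neighbouring genes called higher (dark red), with the next 3 compared genes on each side (light red where called higher, grey otherwise), in chromosome order and not to scale. Ratios drop to near 0 at the edges of most runs, as from Tap2 (4.23) to Gpsm3 (0.22).

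Of the 144 genes called higher, 103 were members of a gene list and 41 of none. Those outside the lists were mostly the weaker ones, 36 of the 68 genes between 2- and 4-fold against 5 of the 76 at 4-fold or more. The 5 steep ones, all but Trim5 named after their values were seen, were Ifi203, a DNA-binding protein of the p200 family (4.11), Rtp4, a chaperone that also restrains viral growth (3.47), Psme2b, a copy of the proteasome activator gene (3.13), Trim5 (2.60) and Tmem140 (2.12). Ifi203 had 656.1 and 746.1 normalised reads with IFNγ, against 42.5 and 37.0 with mock.

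The lysosomal, ER chaperone, melanocyte and sterol genes that passed limma were higher by less than 2-fold, and the count past limma in each of these lists rested on how the spread was modelled. Of 30 lysosomal genes 20 were higher (8.53% over all genes) and 0 lower, with a median log2 ratio of 0.18 and all below 2-fold. Smpd1, the acid sphingomyelinase, had 3044 and 3019 normalised reads with IFNγ, against 2007 and 1829 with mock (log2 ratio 0.66, limma adjusted p = 3.6e-06). Of 19 ER chaperone genes 15 were higher, with a median of 0.25. Hspa5, the main ER chaperone BiP, had 24847 and 24607 with IFNγ, against 18844 and 20418 with mock (0.33). Dnajb9, Sdf2l1 and Pdia4 were higher by 0.44, 0.38 and 0.35. For Hspa5 the authors' log2 ratio of T0 over IFNγ was 0.10 and that of T0 over mock 0.43, so both groups stood below T0. In the same order these ratios were -0.42 and 0.02 for Dnajb9, -0.10 and 0.28 for Sdf2l1, and -0.19 and 0.16 for Pdia4. Of 16 melanocyte genes tested 12 were higher, with a median of 0.28, led by the ion channel gene Trpm1 with 2828 and 2817 with IFNγ, against 1676 and 1637 with mock (0.77). The pigment genes Oca2 (0.57), Gpr143 (0.50) and Slc24a5 (0.44) came next, and Pmel, whose reads could not be assigned to libraries, averaged 114724 with IFNγ and 77727 with mock. Of 23 sterol synthesis genes 10 were higher, Mvk and Fdps by 0.29 and 0.28. Without a variance trend limma found 3 lysosomal, 1 ER chaperone, 4 melanocyte and 0 sterol genes higher, and a fit over all 14 libraries found 1, 1, 1 and 0.

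Most mitosis genes were lower by less than 2-fold, while most genes of DNA replication, ribosomal proteins and p53 targets did not pass. Of 30 mitosis genes 21 were lower (6.04% over all genes) and 0 higher, with a median log2 ratio of -0.20. Kif11, a spindle motor, had 3782 and 3634 normalised reads with IFNγ, against 4592 and 4957 with mock (log2 ratio -0.36, limma adjusted p = 3.8e-04), and Kif23 fell by 0.36. Mki67, a marker of cycling cells, had 12153 and 11176 with IFNγ, against 13142 and 16939 with mock, so the mock libraries lay further apart than the groups did (-0.37). Of 28 DNA replication genes 6 were lower, Ccne2 and Ccne1 by 0.26 and 0.20. Of 40 ribosomal protein genes 14 were lower, with a median of -0.14, and Rps2 fell by 0.29. Of 20 p53 targets 6 were lower, led by Eda2r, a death receptor of the TNF family, with 112.7 and 124.2 with IFNγ against 232.6 and 222.8 with mock (-0.94). Without a variance trend, and in the fit over all 14 libraries, 0 of the mitosis and 0 of the DNA replication genes passed, 0 and 1 of the ribosomal protein genes, and 1 and 0 of the p53 targets. Without IFNγ library 1 the lower genes numbered 13, 1, 3 and 3 in the mitosis, DNA replication, ribosomal protein and p53 lists, and without IFNγ library 2 they numbered 9, 0, 12 and 3.

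Over all genes tested 6.04% were lower and 8.53% higher, and list counts near these shares are not read as results. Of 35 adhesion and matrix genes 15 were lower and 3 higher. Adam19, a metalloprotease, had 331.7 and 314.6 normalised reads with IFNγ, against 583.0 and 590.4 with mock (log2 ratio -0.86), Col5a1 fell by 0.57, and Spp1, the secreted osteopontin, was higher by 0.66. Of 20 NF-κB subunits and targets 4 were lower, Tnfaip3, a brake on the pathway, by 0.77 and Relb by 0.73, and 1 was higher. Of 11 retinoic acid genes 3 were lower: Cyp26b1 (-0.86), Dhrs3 (-0.63) and Aldh1a3 (-0.55). Dhrs3, a retinal reductase, had 731.2 and 770.9 with IFNγ, against 1282 and 1041 with mock, and averaged 292.3 in T0, so both groups stood above T0. Of 19 ferroptosis and glutathione genes tested 5 were lower, including the cystine carrier gene Slc7a11 (-0.39) and the transferrin receptor gene Tfrc (-0.35), and 2 higher. Of 31 oxidative phosphorylation genes tested 1 was higher and 0 lower, and of 18 glycolysis genes 1 was higher and 1 lower. Most of these counts shrank when the spread was modelled another way: without a variance trend 3 adhesion and matrix, 1 NF-κB, 1 retinoic acid and 0 ferroptosis genes were lower, and over all 14 libraries 2, 0, 0 and 0. Without IFNγ library 1 they numbered 8, 2, 1 and 3.

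**Figure D5:**
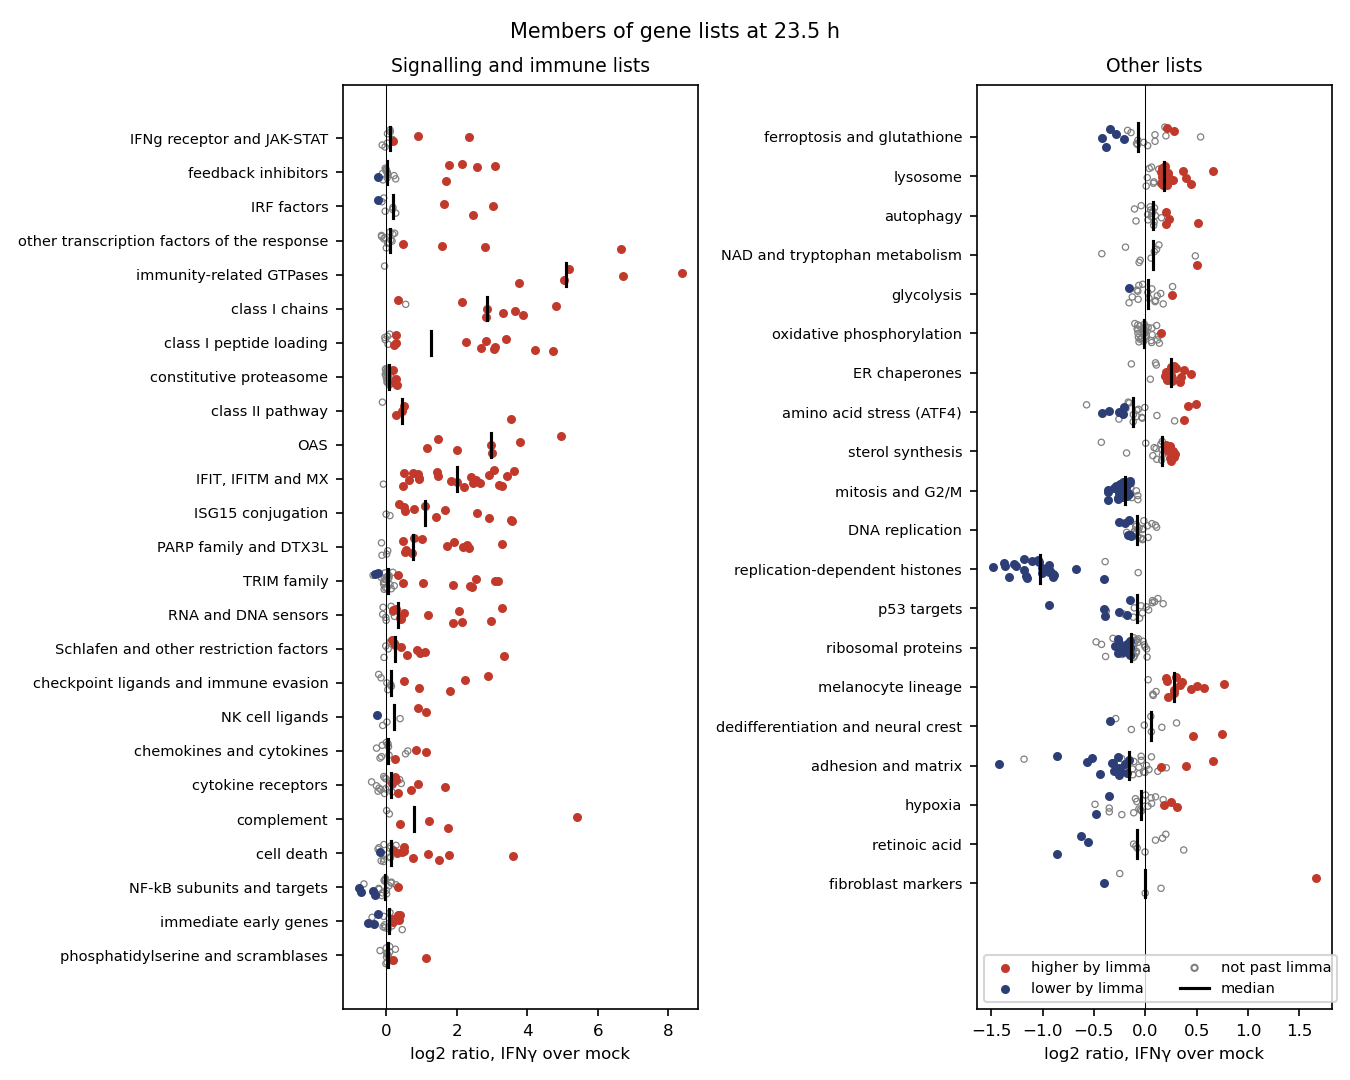
Log2 ratio of IFNγ over mock of tested members of the lists with at least 5 compared genes, with a few members left out. Red members were higher and blue members lower by limma, open circles did not pass, and the bar is the median of the members drawn. Medians of the whole lists run from -1.02 for replication-dependent histones to 5.10 for immunity-related GTPases, and the axes of the panels differ.

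Replication-dependent histone genes, which supply chromatin in S phase, and genes of small RNAs led the genes called lower, and 25 of the 43 had a mock level under 100. Of 26 replication-dependent histone genes 24 were lower and 15 called, with a median log2 ratio of -1.02. Hist1h4f had 116.4 and 138.0 normalised reads with IFNγ, against 349.4 and 312.7 with mock (log2 ratio -1.37, SE 0.12, limma adjusted p = 8.1e-06). Summed over the list the IFNγ libraries had 3690 and 5317, against 8826 and 8135 with mock, so the IFNγ libraries also differed from each other. Without IFNγ library 1 the median was -0.77 with 3 called, and without IFNγ library 2 it was -1.44 with 22 called. Without a variance trend 3 histone genes were lower and 2 called, and in the fit over all 14 libraries 8 were lower and 7 called. Genes of small RNA classes moved the same way, for 12 of 20 were lower, among them the Y RNA genes Rny1 (6.41 and 7.36 with IFNγ, against 29.9 and 26.0 with mock) and Rny3 (-1.79). Together, histone-cluster and small RNA genes made up 24 of the 43 called lower. This grouping was set after the values were seen. Without a variance trend it held 5 of the 12 genes called lower, and over all 14 libraries 9 of 12. Of the small RNA genes 3 were lower without a variance trend and 2 over all 14 libraries. Such transcripts mostly lack the long polyA tail by which polyA RNA is selected. The 18S entry Rn18s-rs5, another transcript without such a tail, took 9.47% of the gene total with IFNγ and 12.4% with mock. The mitochondrial rRNAs mt-Rnr1 and mt-Rnr2 had log2 ratios of -0.53 and -0.51. The mitochondrial protein-coding genes compared were also below 0, with log2 ratios between -0.38 (mt-Cytb) and -0.06 (mt-Co1). Whether polyA selection differed between the libraries was not tested.

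Of the other 12426 genes tested 19 were called lower. Sorcs2, a sorting receptor, had 11 and 12.9 normalised reads with IFNγ, against 47.3 and 56.9 with mock (log2 ratio -2.04, SE 0.28, limma adjusted p = 4.7e-04), the steepest fall of any gene called. Csdc2 (-1.58), the cartilage collagen gene Col2a1 (-1.42), Prr7 (-1.39), Lgr6 (-1.36) and Il12rb2, a chain of the interleukin 12 receptor (-1.33), all had fewer than 100 normalised reads in each group. Among those of higher level were Tenm4, a cell adhesion protein, with 189.7 and 173.9 with IFNγ, against 396.7 and 438.5 with mock (-1.20), and Prex1, an activator of Rac GTPases, with 160.4 and 151.8 with IFNγ, against 363.0 and 340.6 with mock (-1.17).

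The authors' deposited tables set each group against T0, which both comparisons share, and give an adjusted p under 0.05 to 2577 of 13003 genes for IFNγ and to 729 of 12905 for mock. In the authors' deposited tables Iigp1 had an adjusted p of 0 for IFNγ and 0.959 for mock, and Irf1 had 2.4e-141 for IFNγ and 1 for mock. Trpm1, which passed in both, averaged 2822 with IFNγ, 1657 with mock and 979.2 in T0, with adjusted p-values of 3.52e-103 for IFNγ and 3.04e-16 for mock in the authors' deposited tables.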

How the data were processed

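The deposited tables compare T0 with each other group, and those of IFNγ and of mock at 23.5 h were used, with T0 as the link. The submitters' processing notes name builds mm10 and GRCm38 and the tools DESeq, HTSeq 0.5.3, STAR 2.5.0a and Picard 1.124. Strand setting, annotation and the filter behind the listed genes: not given in the sources used here, so a gene and an antisense partner cannot be told apart. Per the file headers, each table holds the authors' mean signal per gene for both groups, their log2 of the T0 mean over the other mean, and their p-values. Rows naming no gene (4 in the mock table, 0 in that of IFNγ) were left out.

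Each deposited mean behaves as a mean of whole reads of 2 libraries divided by size factors, though the labels name 1 sample per group. Both read numbers were solved from each mean, uniquely for 99.6% of 157036 values (562 had several solutions and 5 none), allowing an error of 1.2 times what rounding to the 10 printed digits can give. The T0 reads of 13307 genes solved in several tables differed in 0 cases, and of 36000 simulated means 0 were solved wrongly. The 30 genes compared but not solved, mostly of very high level, were not tested. Values of the IFNγ table were divided by 1.03 to match T0 in the mock table.

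limma 3.58.1 (R 4.3.3, variance trend) was run on the 4 libraries as log2(normalised reads + 1), over all genes with a level of at least 20, with Benjamini-Hochberg adjustment, two-sided; the pseudocount of 1 understates changes of low genes. SE and p belong to limma's estimate. The fit was tested on simulated data. Python 3.11.15, pandas 2.3.3, numpy 2.4.6 and matplotlib 3.10.9 were also used. Alternatives varied the variance model, the libraries, the scale, the pseudocount and the level minimum. Positions come from an annotation of GRCm38 and promoters from RefSeq. Depth was 17892104 to 20007383 reads in recovered genes per library.

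Named were the 15 highest and 15 lowest ratios among genes called, the 15 higher and 10 lower with the largest difference in level, the 4 largest ratios past limma in each of 53 lists (every member of lists with 15 or fewer compared), members of runs, and the 5 highest genes listed for IFNγ alone. A few further members are named to complete a count or to set a related gene beside one named, and were chosen after their values were seen. The comparison and lists were chosen with earlier results of these data known. A few list members are counted but not reported by name here. No value column was left unused (0).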

Additional observations from a re-analysis of the deposited data

How the results depend on the processing

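The genes higher by limma, 1065 as reported, numbered 290 without a variance trend and 243 in the fit over all 14 libraries, and the 754 lower ones 82 and 77. Leaving out 1 library in turn gave 598 to 1182 higher and 397 to 977 lower, with 598 and 397 without IFNγ library 1 and 608 and 426 without IFNγ library 2. The count called higher, 144, ran from 120 to 157 over all settings. The count called lower, 43, fell to 12 without a variance trend, 12 over all 14 libraries and 18 with a level minimum of 100. It ran from 23 to 89 with 1 library left out: 23 without IFNγ library 1, 89 without IFNγ library 2 and 28 without mock library 1. The other settings, equal library totals, a scale by median of ratios, T0 libraries in the fit, pseudocounts of 0.5 and 5 and no level minimum, kept these counts within 1.5 times. In 0 cases did a named gene change direction past the threshold. The cause of these differences was not tested, except that a level minimum of 100 tests fewer genes. Among 302 named genes, 97 no longer passed limma without a variance trend and 104 over all 14 libraries, while with either other pseudocount all 302 stayed on their side of its threshold. Of the 114 named genes that were called, 20 lost the call without a variance trend, 24 over all 14 libraries, 20 with a level minimum of 100, 5 with a pseudocount of 5 and 4 to 13 with 1 library left out. No paired analysis was possible because the labels give 1 sample per group and the library numbers pair nothing. Depth limits genes of low level: 17 of the 43 called lower had fewer than 20 normalised reads with IFNγ.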
